A study of Homo sapiens with 8 samples.

Results

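PAI-1 knock-down in UM-UC-3 cells was examined over the well expressed genes, defined as those with a mean of at least 10 TPM (a gene's share of the transcripts of a library, corrected for gene length) over the 4 UM-UC-3 libraries. This cutoff kept 8181 of the 27475 human genes in the series, and 18528 of these genes were above 0 TPM in at least 1 UM-UC-3 library. The rule uses the mean over both siRNAs and not the difference between them. The 8181 genes held between 98.1% and 98.2% of the TPM of each library, with a median of 37.6 TPM. The genes just inside the cutoff were CTU1, RNF115 and ZNF526, at means of 10 to 10.01 TPM. Just outside lay SMAD7, ST3GAL1 and XPO4, at 9.97 to 9.995 TPM.

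UM-UC-3 is an established human bladder cancer cell line, as is RT112, the second line of the study. One group of UM-UC-3 cells was transfected with 3 pooled siRNAs to PAI-1 (siPAI-1) and the other with 3 pooled scrambled siRNAs (Scr), 100 pmol in both groups, and mRNA was sequenced after 72 h. Each group has 2 libraries, numbered 1 and 2, and the same design was run in RT112. The knock-down was transient, and both groups were transfected, so an untransfected state was not part of the comparison. The study describes independent repeats of the knock-down, but neither it nor the labels say which repeat gave which library, so the p-values below measure only the spread between these libraries. The estimated depth was between 30.1 and 34.1 M (mega) reads per library. At that depth a gene at 10 TPM has 207 to 236 reads per kb of transcript. For a transcript of 1 kb, counting error alone then gives an SD of 0.094 to 0.10 on the log2 scale.

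PAI-1 is a serpin that blocks the plasminogen activators uPA and tPA, and thereby the making of plasmin at the cell surface and in blood clots. It also binds vitronectin and is cleared, bound to uPA, through endocytic receptors such as LRP1. In bladder cancer it has been studied for its link to proliferation and, in this series, for its presence in the nucleus.

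The line was first checked against its markers. VIM, the intermediate filament protein of mesenchymal cells, was between 2852 and 3142 TPM, and ZEB1, a repressor of epithelial genes, between 43.1 and 48.3 TPM. CDH2 and FN1, also taken as markers of the line, had ranges that overlapped those in RT112. CDH2 was at 9.22 to 12.63 TPM in UM-UC-3 and at 7.65 to 20.58 TPM in RT112. FN1 was at 60.83 to 70.56 TPM in UM-UC-3 and at 58.25 to 120.4 TPM in RT112. Of 16 luminal urothelial genes, 13 were above 1 TPM in all 4 RT112 libraries, UPK1A, UPK3A and KRT20 being the exceptions. In UM-UC-3, 12 of the 16 were under 1 TPM in all 4 libraries and 2 (GRHL3 and UPK3A) were at 0, and the sum of the 16 was 9.8 to 11.6 TPM against 2273 to 2513 TPM in RT112. The 10 leukocyte and endothelial markers were each under 1 TPM and summed to 0.23 to 1.16 TPM.

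In the text that follows, a log2 difference is the mean log2(TPM + 0.1) of the siPAI-1 libraries minus that of the Scr libraries, and values in TPM are given in the order siPAI-1 libraries 1 and 2, Scr libraries 1 and 2. A gene is called higher where both siPAI-1 libraries lay above both Scr libraries, lower where both lay below, and overlapping otherwise. Both groups are mixtures of many cells, so fewer cells of a kind and less RNA per cell cannot be told apart.

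The differences were small. The median log2 difference was -0.01, and the 5th and 95th percentiles were -0.24 and 0.22. Higher were 1457 of the 8181 genes (17.8%) and lower 1734 (21.2%), and the median size of these separated differences was 1.11-fold. Among all 18528 genes above 0 TPM the shares were 15.1% and 17.1%. At least 1.2-fold apart were 219 of the higher and 270 of the lower genes, and at least 1.5-fold apart were 4 and 17. The 17 include the entries CH507-513H4.3, CH507-513H4.4 and CH507-513H4.6. Their values were identical, at 95.94 and 94.74 against 105 and 202.4 TPM, so they do not count as separate results. With limma and Benjamini-Hochberg adjustment over the 18528 genes, 0 genes (0%) had an adjusted p under 0.05. Without adjustment, p was under 0.05 for 263 genes on the higher side (3.21%) and for 374 on the lower side (4.57%), against 2.6% and 3.41% of all genes above 0 TPM. When the 8181 genes alone were fitted with limma, 1 gene (0.0122%) passed. Every gene named below had an adjusted p of 0.791 or more by limma, so none of their differences passed the test over all genes, and they are given as values.

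The libraries differed in the GC content of the genes they favoured, more so between the groups than within them. Across 8145 genes with an annotated transcript, the log2 difference had a Spearman correlation of -0.352 with the GC content of the transcript and of 0.196 with its length, a description across genes that all share the same 4 libraries. For each siPAI-1 library against each Scr library the correlation with GC content lay between -0.226 and -0.301, while it was 0.003 between the siPAI-1 libraries and 0.077 between the Scr libraries. The higher genes had a median GC content of 42.9% and the lower genes one of 53.8%, with 47.4% over all 8181 genes. In the bin of lowest GC content (median 35.3%), 31.1% of the genes were higher and 10.5% lower, and in that of highest GC content (65.2%), 3.92% were higher and 39.5% lower. The Scr library 1 had the strongest rise with GC content. In RT112 the same correlation was 0.033. After centring each library on its median within 20 GC bins, the higher genes numbered 1464 and the lower ones 1542, and 1116 and 1261 of them were so before centring. GC-centred medians are therefore given beside the list medians below, and the part of GC content in a single gene's difference was not tested otherwise.

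**Figure D1:**
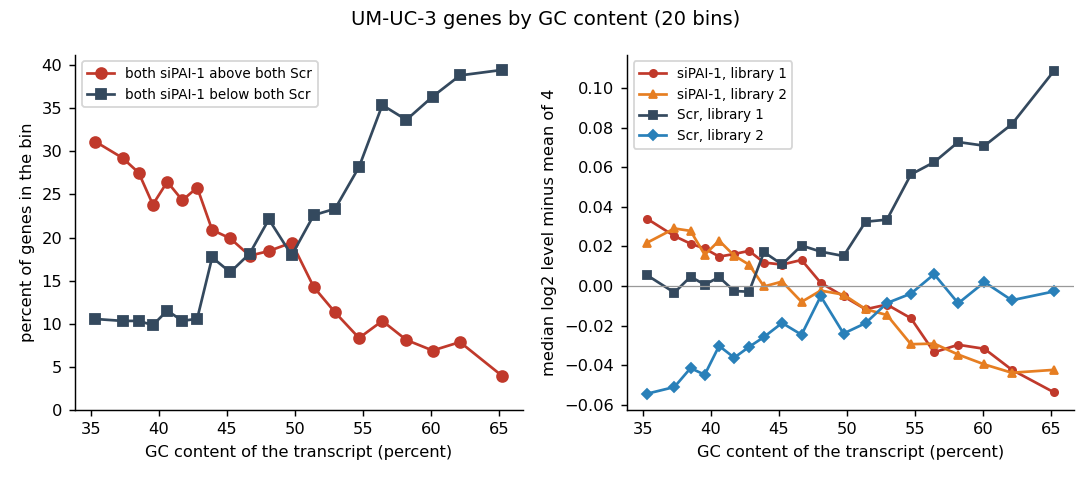
UM-UC-3 genes of at least 10 TPM in 20 bins of equal size by GC content of the transcript (x axis, percent). Left, the percent of genes in each bin with both siPAI-1 libraries above (red circles) or below (dark squares) both Scr libraries. The share of higher genes goes from 31.1% in the first bin to 3.92% in the last. Right, the median log2 level of each of the 4 libraries minus the gene's mean over the 4, where the siPAI-1 lines run downward with GC content and the Scr lines run upward.

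The genes farthest apart are shown library by library, by a rule that takes the 10 highest and 10 lowest differences among genes with separated groups and an unadjusted p under 0.05. The gene with the closest replicates on the higher side was MYCBP (ENSG00000214114.8), a protein that binds the amino-terminal part of MYC. It was at 45.1 and 42.7 TPM with siPAI-1 and at 26.6 and 27.7 TPM with Scr, a log2 difference of 0.69 (SE 0.075) or 1.61-fold. Replicates differed by far less than the groups, and in RT112, at 73.9 to 82.4 TPM, the groups overlapped. SLCO1B3, an organic anion transporter of the liver, was at 15.9, 12.1, 10.5 and 6.62 TPM (log2 difference 0.73, SE 0.27), so its replicates were widely spread and its groups nearly touched. ANGPTL4, a secreted inhibitor of lipoprotein lipase, was at 62 and 56.2 TPM with siPAI-1 and at 44.3 and 33.8 TPM with Scr (log2 difference 0.61, SE 0.14). ID2, an inhibitor of basic helix-loop-helix factors, was at 40.7 and 36.2 against 31.5 and 21.6 TPM. For both genes Scr library 2 was the low sample. The poly(A) polymerase PAPOLG was at 12.6 and 13.2 against 9.53 and 7.92 TPM, and the kinase CLK4, which phosphorylates SR splicing factors, at 14.6 and 16.4 against 12.7 and 9 TPM. The other 4 were the long noncoding entry CTD-2066L21.3, FAM193B, ZMYM6NB, which shares sequence with its neighbour ZMYM6, and MSH5, a MutS homologue of meiosis, with log2 differences between 0.51 and 0.62.

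Among the lower genes, FAM72A was at 8.64 and 5.7 TPM with siPAI-1 and at 13.2 and 21.8 TPM with Scr (log2 difference -1.26, SE 0.31). It belongs to a family of nearly identical copies, so its reads may be split among them and its value is uncertain. APBA3, an adaptor protein that binds the amyloid precursor protein, was at 8.21 and 8.26 against 14.1 and 13.2 TPM (log2 difference -0.72, SE 0.12). FAM173A, a lysine methyltransferase of mitochondria, was at 18.5 and 18.1 against 31.1 and 27.6 TPM (-0.68, SE 0.097). For these genes the siPAI-1 replicates were nearly equal and the groups did not come close. MAU2, which helps to load cohesin onto DNA, was at 15.6 and 12.5 against 22 and 22.2 TPM (log2 difference -0.65, SE 0.13). The cytokine IL32 was at 9.62 and 11.1 against 15.5 and 16.4 TPM (log2 difference -0.63, SE 0.13). In RT112 it was near 0, at 1.64 and 1.13 against 2.6 and 1.74 TPM, where the groups were separated (log2 difference -0.61). The tumour antigen MAGEA3, which has a nearly identical relative in MAGEA6, was at 18.2 and 16.5 against 29.4 and 23.6 TPM. The entries RP11-500M8.7, RP11-1212A22.4 and AL109927.1, which carry clone names, had log2 differences between -0.80 and -0.63 with wider replicates. Chosen after their values were seen, 2 further entries at least 2-fold apart were AC002985.3 (2.99 and 13.3 against 15.7 and 15.1 TPM) and RP11-1012A1.4, whose groups overlapped (14 and 1.91 against 9.01 and 22.3 TPM).

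**Figure D2:**
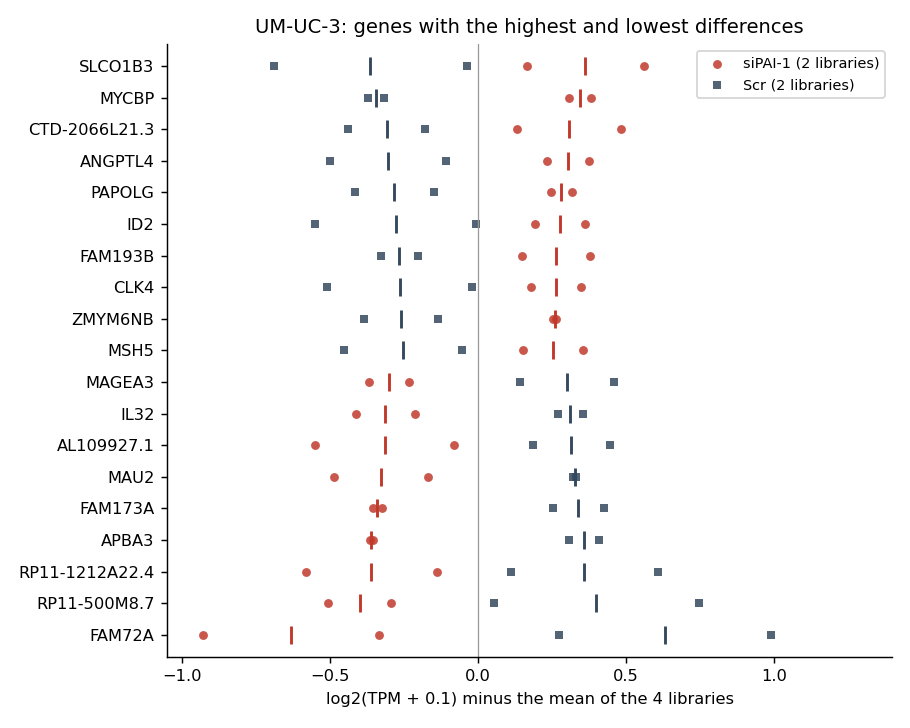
The 10 genes with the highest log2 differences and 9 of the 10 with the lowest, each library's log2(TPM + 0.1) minus the gene's mean over the 4 UM-UC-3 libraries (x axis). Red circles are the siPAI-1 libraries and dark squares the Scr libraries, with upright bars at the group means. MYCBP and FAM173A have tight replicates, while FAM72A and SLCO1B3 are spread.

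To describe pathways and families, 66 gene lists were used, of which 61 had at least 8 of the 8181 genes. The 8 lists with the highest medians, the 8 with the lowest and 7 others named for the study are described, and each list is read against the 17.8% higher and 21.2% lower over all 8181 genes. These medians chose the lists, so the order is a description. In 14 of the 61 lists the medians of both siPAI-1 libraries lay above those of both Scr libraries, and in 10 they lay below.

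**Figure D3:**
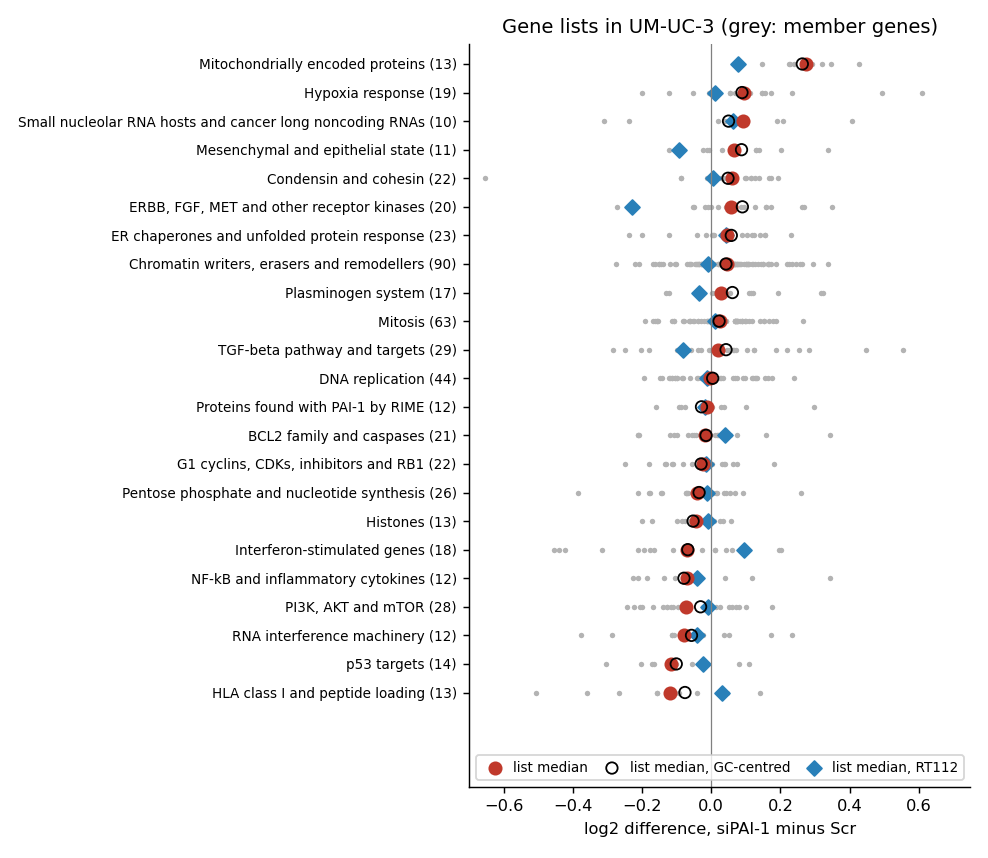
Log2 differences (x axis, siPAI-1 minus Scr) of the genes in the 23 described lists, with the number of genes of at least 10 TPM in parentheses. Grey dots are genes reported here in UM-UC-3, red dots list medians, open circles medians after GC centring and blue diamonds the RT112 medians of the same genes. The list of mitochondrially encoded proteins has the highest median, and the other UM-UC-3 medians lie between -0.12 and 0.09.

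The mitochondrial genome encodes 13 proteins, core subunits of respiratory complexes I, III and IV and of ATP synthase. All 13 genes were higher in both siPAI-1 libraries (100% against 17.8% over all genes), 12 of them with an unadjusted p under 0.05 by limma and MT-ND3 as the exception. The 13 genes lie on 1 genome and were measured in the same 4 libraries, so they are not 13 independent results. Their log2 differences ran from 0.15 to 0.43 with a median of 0.28, or 21% higher at the median. MT-ND1, a membrane subunit of complex I, was at 1126 and 1162 TPM with siPAI-1 and at 870 and 931 TPM with Scr (log2 difference 0.35, SE 0.058). MT-CYB of complex III was at 1782 and 1793 against 1400 and 1535 TPM. MT-CO1, the catalytic subunit of complex IV, was at 3983 and 3993 against 3328 and 3433 TPM (log2 difference 0.24, SE 0.056). In each case the siPAI-1 libraries were closer to each other than to either Scr library. MT-ATP8, the gene with the highest level of the list, was at 5041 and 5293 against 3760 and 4545 TPM, and MT-ATP6 at 3196 and 3108 against 2533 and 2684 TPM. MT-ND2 and MT-ND4 had log2 differences of 0.27 and 0.28. MT-ND6, which lies on the other strand, was at 1100 and 1072 against 858 and 923 TPM (log2 difference 0.29, SE 0.058). MT-ATP8 overlaps MT-ATP6, and MT-ND4L overlaps MT-ND4, so reads in the shared bases belong to neither gene alone.

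Summed up, the 13 genes took 3.04% and 3.09% of the TPM with siPAI-1 and 2.45% and 2.61% with Scr. Their adjusted p ran from 0.791 to 0.832 by limma. With GC centring all 13 stayed higher, with a median of 0.26, and over the other alternatives and with any 1 library left out the median stayed between 0.23 and 0.33. The nuclear genes for the same machinery did not share the difference. The 37 nuclear genes of complex I had a median log2 difference of 0.01 (-0.01 after GC centring, 7 higher, 5 lower), and the 20 genes of ATP synthase one of 0.002 (0.006 after GC centring, 6 higher, 6 lower). Of the 25 nuclear genes of complexes II to IV, 1 was higher and 4 were lower. The 77 mitochondrial ribosomal proteins had 7 higher and 16 lower. In RT112, 1 of the 13 mitochondrial genes was higher, MT-CO3, and the median was 0.08. The test of a difference between the lines gave adjusted p values of 0.846 to 0.948 by limma, so the lines were not shown to differ.

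**Figure D4:**
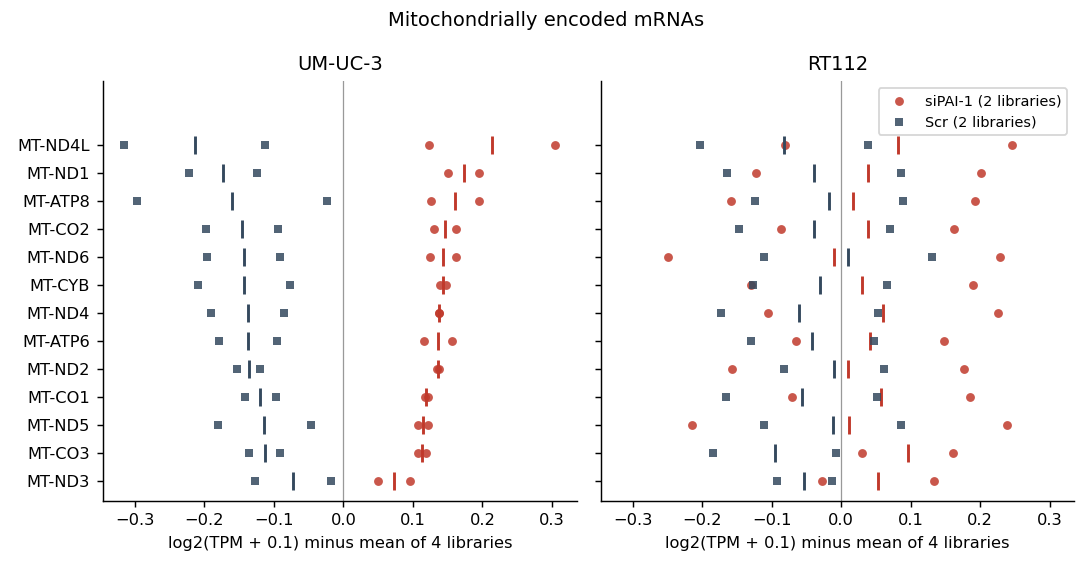
The 13 mitochondrially encoded mRNAs in UM-UC-3 (left) and RT112 (right), each library's log2(TPM + 0.1) minus the gene's mean over the 4 libraries of the line (x axis). Red circles are siPAI-1 libraries, dark squares Scr libraries and upright bars group means. In UM-UC-3 the groups are apart for all 13 genes, and in RT112 they overlap for all but MT-CO3.

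At the other end stood antigen presentation. HLA class I molecules display peptides that TAP1 and TAP2 pump into the endoplasmic reticulum, where tapasin (TAPBP) loads them and ERAP1 trims them. Interferon raises both these genes and the antiviral interferon-stimulated genes from their promoters. Both lists had a median difference below 0, and the promoters of the 2 lower genes with the smallest unadjusted p in each are shown, 160 bases up to the start of the RefSeq transcript in GRCh38.p14, with no part marked.
ISG15, chr1:1013337-1013496, plus strand: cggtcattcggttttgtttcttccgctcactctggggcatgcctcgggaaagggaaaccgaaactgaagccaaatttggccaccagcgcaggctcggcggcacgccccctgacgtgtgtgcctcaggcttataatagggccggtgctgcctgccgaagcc
DTX3L, chr3:122564178-122564337, plus strand: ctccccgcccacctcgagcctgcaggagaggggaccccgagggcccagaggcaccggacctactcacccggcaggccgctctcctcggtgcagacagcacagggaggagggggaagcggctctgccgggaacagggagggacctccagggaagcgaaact
TAPBP, chr6:33314079-33314238, minus strand: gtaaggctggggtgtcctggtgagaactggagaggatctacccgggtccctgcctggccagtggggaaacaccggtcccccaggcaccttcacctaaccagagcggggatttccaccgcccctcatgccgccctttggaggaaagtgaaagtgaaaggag
ERAP1, chr5:96807946-96808105, minus strand: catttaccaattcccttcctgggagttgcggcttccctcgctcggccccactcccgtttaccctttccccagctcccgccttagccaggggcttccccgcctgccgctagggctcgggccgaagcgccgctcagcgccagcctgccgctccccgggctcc
ERAP1, chr5:96814146-96814305, minus strand: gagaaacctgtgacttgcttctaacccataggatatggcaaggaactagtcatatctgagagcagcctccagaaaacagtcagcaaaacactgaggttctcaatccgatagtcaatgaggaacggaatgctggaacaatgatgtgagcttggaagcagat

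ERAP1 has 2 RefSeq starts, and both windows are given. The GC content was 60.6% in the ISG15 window, 70.6% in that of DTX3L, 61.3% in that of TAPBP, and 70% and 45% in those of ERAP1, beside a median of 59.4% over all 35116 promoter windows of this length. RefSeq promoters were matched for 16 of the 18 interferon-stimulated genes and 10 of the 13 HLA list genes.

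Of 13 HLA class I and peptide loading genes, 8 were lower (61.5%) and 2 higher, 4 of the lower ones with an unadjusted p under 0.05. The median log2 difference was -0.12, and it was -0.08 after GC centring. TAP1 was at 10.5 and 10.4 TPM with siPAI-1 and at 13.4 and 13.4 TPM with Scr (log2 difference -0.36, SE 0.11). TAPBP was at 60.7 and 61 against 75.9 and 70.7 TPM (-0.27, SE 0.065). ERAP1 was at 17 and 17.9 against 21.6 and 28.5 TPM (-0.51, SE 0.15). For TAP1 and TAPBP the replicates were close and the groups apart, while the size of the ERAP1 difference rested in part on Scr library 2. HLA-C was at 237 and 229 against 270 and 250 TPM and HLA-B at 54.3 and 54.8 against 63.3 and 58.4 TPM. HLA-B and HLA-C are close in sequence, so the split of reads between them is uncertain. CALR, the chaperone calreticulin and the gene with the highest level of the list, was at 999.7 and 1036 against 1005 and 979 TPM, with overlapping groups. In RT112, 3 of the 13 genes were higher and 2 lower, and TAP1, HLA-B and HLA-C were the higher ones, with log2 differences of 0.14, 0.15 and 0.18. ERAP1 was among the lower ones there, at 22.8 and 20 against 27.5 and 30.5 TPM (log2 difference -0.44).

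Among 18 interferon-stimulated genes, 7 were lower (38.9%) and 2 higher, and 5 of the lower ones had an unadjusted p under 0.05. The median log2 difference was -0.07, with and without GC centring. ISG15, a ubiquitin-like modifier, was at 24.4 and 23.6 TPM with siPAI-1 and at 32.2 and 32.2 TPM with Scr (log2 difference -0.42, SE 0.076). The ubiquitin ligase DTX3L was at 9.19 and 8.36 against 12.4 and 11.8 TPM (-0.45, SE 0.13). ISG20, a nuclease for single-stranded RNA, was at 12.7 and 14.6 against 20.6 and 16.6 TPM (-0.44, SE 0.15). These were the largest differences of the list, with ISG15 the most even between replicates. IFI6, a mitochondrial protein that protects from apoptosis, was at 19.2 and 21.8 against 25.5 and 25.6 TPM. IFITM3, which blocks viral entry and had the highest level of the list, was at 235 and 234 against 258 and 273 TPM. IRF1 and IRF9, transcription factors of the pathway, had overlapping groups. In RT112 IFITM3 was higher, with a log2 difference of 0.20, and DTX3L was lower. ISG20 and IFI6 were also higher there but near 0, at 1.01 and 0.75 against 0.36 and 0.11 TPM and at 2 and 1.46 against 0.63 and 1.23 TPM. The 2 sets share no gene, and both were lower in median under every alternative, between -0.19 and -0.08 for the HLA list and between -0.14 and -0.03 for the interferon list.

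**Figure D5:**
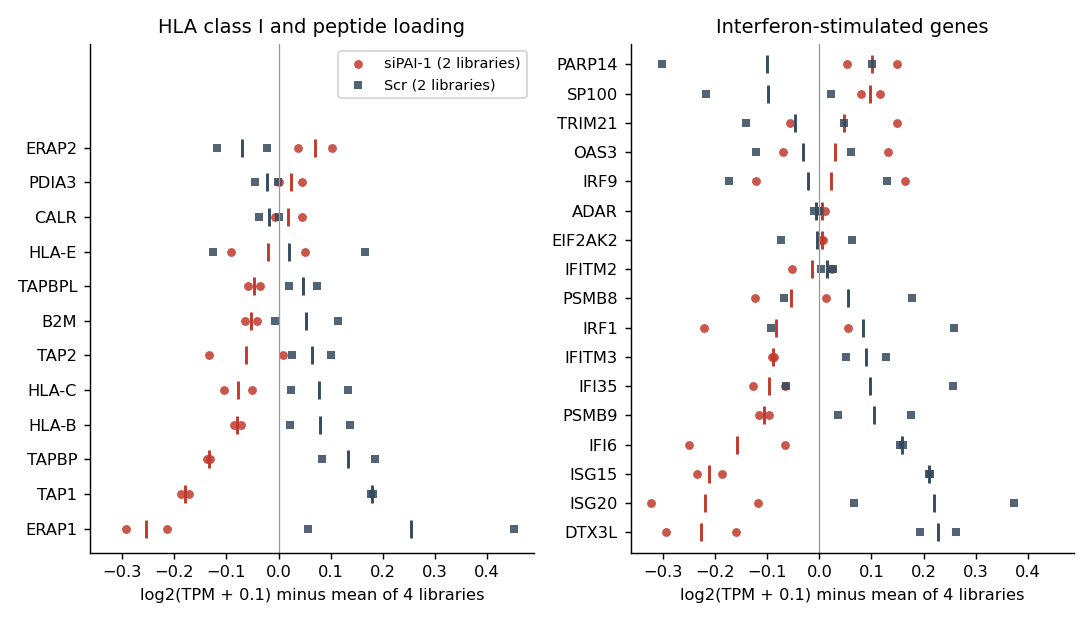
Genes of the HLA class I and interferon lists reported here, each library's log2(TPM + 0.1) minus the gene's mean over the 4 UM-UC-3 libraries (x axis). Red circles are siPAI-1 libraries, dark squares Scr libraries and upright bars group means. TAP1, TAPBP and ISG15 have tight replicates with the siPAI-1 libraries on the left, and IRF9 overlaps.

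Inflammatory genes outside the interferon lists were mixed. The 12 NF-kB and cytokine genes had a median log2 difference of -0.07 (-0.08 after GC centring, and -0.01 without Scr library 1), and 3 were higher and 3 lower. BIRC2, an inhibitor of apoptosis that restrains noncanonical NF-kB signalling, was at 56.8 and 61 TPM with siPAI-1 and at 46.2 and 46.4 TPM with Scr (log2 difference 0.34, SE 0.068), and this was the list's clearest separation. RELA was likewise higher (0.12), while RELB (-0.14), the macrophage growth factor CSF1 (-0.21) and the TWEAK receptor TNFRSF12A (181 and 194 against 223 and 203 TPM) were lower. TNFRSF12A and RELB are rich in GC, at 64.2% and 64.9%.

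p53 target genes had the second lowest median, -0.12, or -0.10 after GC centring. Of 14 genes, 5 were lower (35.7%) and 0 higher, and 0 had an unadjusted p under 0.05 by limma. TP53I3, a quinone oxidoreductase, was at 46.8 and 43.6 TPM with siPAI-1 and at 48.3 and 53.7 TPM with Scr. GADD45A, which acts in growth arrest, was at 53.6 and 53.2 against 54.8 and 61.7 TPM, and TIGAR, which lowers glycolytic flux, at 26.1 and 23.5 against 28.2 and 27.4 TPM. For these genes the nearest libraries of the groups were close to each other. The death receptor FAS (-0.20) and the exonuclease AEN (-0.10) were also lower. BAX, the gene with the highest level, was at 167 and 181 against 198 and 177 TPM, and CDKN1A and MDM2 had overlapping groups as well. Without Scr library 1 the median of the list was -0.04.

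The G1 list holds the cyclins, CDKs and inhibitors that control entry into S phase, which the study discusses beside PAI-1 and proliferation. Of 22 genes, 1 was higher and 7 lower (31.8%), with a median log2 difference of -0.03 (-0.03 after GC centring) and 0 genes at an unadjusted p under 0.05 by limma. CDK4, the kinase partner of D cyclins, was at 343 and 331 TPM with siPAI-1 and at 384 and 356 TPM with Scr (log2 difference -0.13, SE 0.059). CDK2 was at 101 and 103 against 106 and 110 TPM and its partner CCNE2 at 39.3 and 36.5 against 40.3 and 42.6 TPM. SKP2, which marks p27 for destruction, was at 31.4 and 32 against 41.4 and 34.4 TPM, and CDKN1B, which encodes p27, at 66.5 and 59.4 against 66.6 and 69.3 TPM. The gene that was higher was CDK6, another partner of D cyclins, at 18.95 and 19.73 against 18.89 and 15.35 TPM, so the kinases lay on both sides. CCND1, the gene with the highest level, was at 347 and 388 against 389 and 358 TPM, with overlapping groups. The median of this list took the other sign (0.03) without Scr library 1.

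DNA replication and mitosis genes showed separated members in both directions. The 44 replication genes had a median log2 difference of -0.002 (0.004 after GC centring), with 11 on the higher and 9 on the lower side. TOP2A, topoisomerase II of dividing cells, was at 293 and 305 TPM with siPAI-1 and at 278 and 269 TPM with Scr, and PRIM1, the primase subunit, had a difference of 0.13. MCM2 of the replicative helicase was at 187 and 187 against 198 and 209 TPM, ORC6 of the origin complex had a difference of -0.20 and the ligase LIG1 one of -0.11. PCNA, at the highest level, overlapped. MCM2 and LIG1 have a GC content of 57.4% and 56.6%, and their groups overlapped after GC centring.

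Of 63 mitosis genes, 21 were higher (33.3%) and 12 lower, with a median of 0.02 (0.02 after GC centring). DLGAP5, a spindle protein, was at 163 and 160 TPM with siPAI-1 and at 141 and 142 TPM with Scr (log2 difference 0.19, SE 0.049). AURKB, the kinase of the chromosomal passenger complex, was at 258 and 240 against 225 and 223 TPM. The kinase NEK2 (0.15) and CKAP2L (0.17), a spindle protein, were higher too, and the 4 genes kept separated groups after GC centring. TACC3, a spindle protein, was lower, at 78.3 and 78.4 against 86.1 and 89.3 TPM. UBE2S, an enzyme of the anaphase-promoting complex pathway, was at 1036 and 997 against 1188 and 1080 TPM. In RT112 DLGAP5 and NEK2 were lower and TACC3 higher.

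Condensin and cohesin, the rings that shape and hold chromosomes, had 8 of 22 genes higher (36.4%) and 3 lower, with a median of 0.06 (0.05 after GC centring, and 0.03 without siPAI-1 library 2). After GC centring 6 were higher and 2 lower. SMC4 of condensin was at 308 and 331 TPM with siPAI-1 and at 282 and 288 TPM with Scr (log2 difference 0.17, SE 0.058). SMC1A of cohesin was at 80.3 and 79.2 against 73.6 and 68 TPM, and it was higher in RT112 as well. SMC3 and SMC6 had differences of 0.12 and 0.19. Thus 4 SMC ATPases were higher, while MAU2, a loader of the ring, was lower, as given above.

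Chromatin writers, erasers and remodellers formed the largest described list. Of 90 genes, 25 were higher (27.8%) and 13 lower, with a median of 0.04 (0.04 after GC centring, and 0.02 without siPAI-1 library 2). KMT2A, a histone H3K4 methyltransferase, was at 26 and 27.1 TPM with siPAI-1 and at 22 and 21.2 TPM with Scr (log2 difference 0.29, SE 0.083), and its relative KMT2B was at 22.9 and 20.9 against 18.5 and 18.1 TPM. The acetyltransferase CREBBP was at 33.6 and 36.4 against 28.6 and 29.7 TPM. KMT2B and CREBBP have a GC content of 63.5% and 55.8%. Lower were the remodeller CHD9 (-0.22) and TRIM28, the corepressor of KRAB zinc finger proteins, at 871 and 906 against 976 and 1023 TPM. TRIM28 overlapped after GC centring. Of 13 histone genes, with a median of -0.04 (-0.05 after GC centring, and -0.09 without Scr library 1), 1 was higher (H2AFZ, 0.06) and 3 were lower, and these were H2AFX, H1FX and H3F3B with log2 differences of -0.20, -0.17 and -0.10. Replication-dependent histone mRNAs mostly lack a poly(A) tail, so few of them reach 10 TPM in mRNA libraries.

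Hypoxia response genes, induced by HIF at low oxygen, had the second highest median, 0.09 (0.09 after GC centring). Of 19 genes, 6 were higher (31.6%) and 1 lower. PFKFB4, which makes the activator of glycolytic phosphofructokinase, was at 12.4 and 11.3 TPM with siPAI-1 and at 7.86 and 8.98 TPM with Scr (log2 difference 0.49, SE 0.14). NDRG1, a stress gene at the highest level of the list, was at 437 and 456 against 432 and 334 TPM. KDM3A, a histone demethylase, was at 52.2 and 50.7 against 42.7 and 48.7 TPM. ERO1L, an oxidase for disulfide bonds, was at 128 and 136 against 121 and 116 TPM. With ANGPTL4 these were the main members higher, and in NDRG1 and ANGPTL4 it was Scr library 2 that lay low. HIF1A itself was lower, at 171 and 160 against 181 and 179 TPM, and VEGFA and SLC2A1 overlapped. Without Scr library 2 the median was 0.02, and without Scr library 1 it was 0.17. Of 17 glycolysis genes 1 was higher and 2 were lower.

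The chaperones of the endoplasmic reticulum had separated genes mainly on the higher side, by small amounts. Of 23 genes, 9 were higher (39.1%), 13 overlapped and 1 was lower, with a median of 0.05 (0.06 after GC centring, and 0.02 without Scr library 2). HSPA5, the main HSP70 of the compartment, was at 243 and 245 TPM with siPAI-1 and at 220 and 218 TPM with Scr (log2 difference 0.16, SE 0.047). HSP90B1 was at 696 and 710 against 638 and 639 TPM (0.14, SE 0.047). For these 2 genes the replicates differed by far less than the groups. DNAJB11, a cofactor of HSPA5, had a difference of 0.12, and the ubiquitin ligase SYVN1 was lower (-0.24). CALR, the gene with the highest level, overlapped, as given above. In RT112, 6 of the 23 genes were higher and 0 lower, though HSPA5 and HSP90B1 overlapped.

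The plasminogen list holds the partners of PAI-1 at the cell surface. The median log2 difference of its 17 genes was 0.03 (0.06 after GC centring), where 6 were higher and 3 lower. Without siPAI-1 library 1 or Scr library 2 it was -0.002 and -0.009. LRP1, the receptor that takes up PAI-1 bound to uPA, was at 28.6 and 26.6 TPM with siPAI-1 and at 21.4 and 22.8 TPM with Scr (log2 difference 0.32, SE 0.089), and it was higher in RT112 by 0.35. IGF2R, which binds uPAR and latent TGF-beta, was at 47.8 and 62.9 against 45 and 42.6 TPM. PLAU, which encodes uPA, was at 514 and 481 against 558 and 532 TPM (log2 difference -0.13, SE 0.059). Its receptor PLAUR overlapped, as did ANXA2, the gene with the highest level, at 5179 and 5145 against 5205 and 5110 TPM. LRP1 and IGF2R thus lay above, and PLAU below, their levels with Scr, though IGF2R only by little in siPAI-1 library 1. In RT112 the groups of IGF2R and PLAU overlapped.

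The list of the TGF-beta pathway, which controls growth and matrix genes, had 6 of 29 genes higher and 4 lower, with a median of 0.02 (0.04 after GC centring, and 0.03 to 0.04 with 1 library left out). The 3 ID genes, direct targets of BMP signalling, were all higher. ID1 was at 102 and 108 TPM with siPAI-1 and at 82.1 and 71.9 TPM with Scr (log2 difference 0.45, SE 0.083), and ID3 at 101 and 94 against 82.5 and 77.6 TPM (0.28, SE 0.067). After GC centring the differences of ID1, ID2 and ID3 were 0.51, 0.58 and 0.35. In RT112 ID1 and ID2 were also higher, and ID3 was lower, with a log2 difference of -0.04. There ID1 was at 401.5 and 308.3 against 284.8 and 307.1 TPM, so its groups nearly touched. ID2 was at a low level, 4.49 and 4.35 against 2.78 and 2.36 TPM. FSTL3, a binder of activin, was at 21.8 and 19.5 against 25.6 and 24.7 TPM, and the corepressor TGIF1 had a difference of -0.18. Both were lower in RT112 as well. TGFB1, the gene with the highest level, overlapped at 119 and 126 against 135 and 120 TPM.

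The receptor kinase list, which includes the ligand HBEGF, had 5 of 20 genes higher and 1 lower. The list of mesenchymal and epithelial state had 4 of 11 genes higher and 0 lower. EGFR was at 43.4 and 42 TPM with siPAI-1 and at 36 and 35.1 TPM with Scr (log2 difference 0.26, SE 0.068). Its ligand HBEGF was at 24.5 and 22 against 19.7 and 21.9 TPM. The collagen receptor DDR1 and the ephrin receptor EPHB2 had differences of 0.35 and 0.10, and ERBB2 was lower (-0.27). DDR1 was at 25.41 and 35.89 against 24.85 and 22.6 TPM (SE 0.18), so its difference rested mostly on siPAI-1 library 2. AXL, at the highest level, overlapped. CDH2, the cadherin of mesenchymal cells, was at 12.6 and 12.4 against 10.6 and 9.22 TPM (0.34, SE 0.13), and ZEB1 at 47.1 and 48.3 against 43.1 and 44 TPM. The factor SNAI2 (0.13) and the desmosome gene DSG2 (0.20) were higher too, and VIM overlapped. For SNAI2, at 16.46 and 18.81 against 16.44 and 15.73 TPM, the groups nearly touched. The groups of SNAI2 and HBEGF overlapped after GC centring. In RT112 several of these genes lay on the other side: EGFR (-0.28), HBEGF (-0.37), CDH2 (-0.72), SNAI2 (-0.42) and DSG2 (-0.09) were lower. For EGFR, CDH2 and SNAI2 this rested mostly on siPAI-1 library 1 of RT112. EGFR was at 49.5 and 71.3 TPM there with siPAI-1 and at 72.3 and 71.4 TPM with Scr, and CDH2 at 7.65 and 17.9 against 18.2 and 20.6 TPM. Without that library the differences of EGFR, CDH2 and SNAI2 were -0.01, -0.11 and -0.14, and those of HBEGF and DSG2 were -0.32 and -0.10. The list medians in UM-UC-3 were 0.06 (0.09 after GC centring) for the receptor kinases and 0.07 (0.09 after GC centring, and 0.03 without siPAI-1 library 2) for the mesenchymal and epithelial genes. In RT112 they were -0.23 and -0.09, and -0.06 and -0.08 without siPAI-1 library 1.

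The machinery of RNA interference was examined because both groups received siRNAs. Of 12 genes, 3 were lower and 0 higher, with a median of -0.08 (-0.06 after GC centring, and -0.03 without Scr library 1). AGO2, which cuts the target of an siRNA, was at 26.4 and 28.6 TPM with siPAI-1 and at 32 and 35.2 TPM with Scr (log2 difference -0.29, SE 0.092). MOV10, a helicase that works with it, was at 30.2 and 27.4 against 39 and 35.9 TPM (-0.38, SE 0.091), while in RT112 it was higher by 0.22. TSNAX was lower (-0.09), DICER1 overlapped, and so did SND1, the gene with the highest level of the list.

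In the PI3K, AKT and mTOR list 7 of 28 genes were lower and 1 higher, with a median of -0.07, which was -0.03 after GC centring and -0.02 without Scr library 1. AKT1 was at 186 and 189 TPM with siPAI-1 and at 206 and 200 TPM with Scr. The mTOR subunit MLST8 was at 42.6 and 38.6 against 49.5 and 45.4 TPM and the kinase RPS6KB1 at 26.6 and 26.4 against 33.9 and 29 TPM. GSK3A was lower (-0.14), and MTOR was the gene that was higher (0.17). Of 26 genes of the pentose phosphate path and nucleotide synthesis, 8 were lower (30.8%) and 1, CTPS1, was higher, with a median of -0.04 (-0.04 after GC centring, and -0.008 without Scr library 1). ADSL of purine synthesis was at 124 and 130 against 147 and 147 TPM (log2 difference -0.21, SE 0.054), and IMPDH1, TKT and PGLS had differences of -0.18, -0.18 and -0.14. RRM2, the gene with the highest level, differed by -0.04.

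The BCL2 family and caspases gave 21 genes with a median of -0.02 (-0.02 after GC centring, and -0.07 without Scr library 2), 4 of them higher and 6 lower. BAD, a proapoptotic BH3 protein, was at 76.5 and 82.9 TPM with siPAI-1 and at 97.6 and 87.3 TPM with Scr, and BOK was lower (-0.21). BAD and BOK have a GC content of 66.3% and 66%. CYCS, which encodes cytochrome c, overlapped at the highest level. Among 12 genes for proteins that the study recovered with PAI-1 from chromatin, 1 was higher and 2 were lower, with a median of -0.01 (-0.03 after GC centring, and 0.01 without siPAI-1 library 2). These were ZFC3H1 (0.30), of which Scr library 1 was low at 14.1 TPM, and NUDT21 and RBM14 (-0.09 and -0.16), while ILF2 overlapped. This list was chosen in the study from protein data, not from these libraries. Of 10 small nucleolar RNA hosts and cancer-linked long noncoding RNAs, PVT1 was at 54.6 and 55.2 against 44.7 and 38.3 TPM (log2 difference 0.41, SE 0.093), NEAT1 was higher (0.10) and SNHG15 lower (-0.24). PVT1 was lower in RT112 (-0.39). The median of these 10 was 0.09 (0.05 after GC centring, and -0.009 without Scr library 2).

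The other 38 lists had medians between -0.04 and 0.04. Some of them still had many separated genes on one side. Of 58 ribosome biogenesis genes 24 were lower (41.4%) and 8 higher, and in RT112 27 were lower and 2 higher. After GC centring, over 57 of these genes, 20 were lower and 7 higher in UM-UC-3. Of 31 hnRNP genes, which package and splice nuclear RNA, 13 were lower (41.9%) and 4 higher, and after GC centring 14 and 3. Of 24 cleavage and polyadenylation genes 11 were higher (45.8%) and 4 lower, and after GC centring 9 and 4. The 84 cytosolic ribosomal proteins had 8 higher and 15 lower, below the 17.8% and 21.2% over all genes. The 23 cholesterol genes had 6 higher and 5 lower, where RT112 had 14 higher and 0 lower. The 5 lists with fewer than 8 genes at this level were integrins (7 genes), keratins (4), luminal markers (2), metallothioneins (2) and leukocyte and endothelial markers (1).

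Compared with RT112, the separated genes were not the same more often than on the other side. Of the genes higher in UM-UC-3, 241 (16.5%) were also higher in RT112 and 302 (20.7%) were lower there, and these 241 were 16% of those higher in RT112. Of the genes lower in UM-UC-3, 322 (18.6%) were lower in RT112 and 350 (20.2%) higher, and these 322 were 21.6% of those lower in RT112. Over the 8181 genes the RT112 libraries had 18.4% higher and 18.2% lower. The Pearson correlation of the log2 differences of the lines was 0.007 across these genes, which are not independent replicates. The test of a difference between the lines gave 0 genes (0%) with an adjusted p under 0.05 by limma and 630 (7.7%) with an unadjusted p under 0.05.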

How the data were processed

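RNA-seq was analysed for UM-UC-3, with RT112 for comparison. The deposited TPM values, which the authors scaled to the same sum in each library, were used throughout, and the FPKM values that the authors deposited beside them served as an alternative and for depth. The authors trimmed single reads of 75 bases, aligned them with STAR and counted genes. The submitters' processing notes name STAR 2.5.0, RSEM 1.2.25 and GRCh38, while the methods name featureCounts, so the counting program is open, and so is whether counting used strand. The study's test needs counts, so limma 3.58.1 in R 4.3.3 took its place (lmFit, then eBayes with trend, two-sided, Benjamini-Hochberg) on log2(TPM + 0.1), with 2 libraries against 2 over genes above 0 TPM. The test was checked on simulated data. All columns were assigned to samples (0 left over), and 92 ERCC entries at 0 were left out.

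Depth was estimated from FPKM steps of short genes with 1 transcript, between 20 and 45 M reads, and a doubled depth would give whole reads as well. GC content and length come from the longest transcript in GENCODE 44, matched by gene identifier. Promoters are from RefSeq (GRCh38.p14), and those shown were chosen after the values were seen. The genes and gene lists were chosen with earlier results of these data known. Named are the 10 highest and 10 lowest differences among genes with separated groups and an unadjusted p under 0.05, any gene with an adjusted p under 0.05, and in each described list the 5 separated genes with the smallest p and the gene of highest level. Some genes that these rules name are not reported here, and they remain in the fits, counts and medians. Described are the 8 highest and 8 lowest list medians and the lists named for the study. The alternatives were a pseudocount of 1 or 0.01, FPKM, median ratio scaling, a cutoff of 20 TPM, a fit on genes of at least 10 TPM, 1 fit over all 8 libraries, a replicate block, no trend, each library left out and, chosen after seeing the data, GC centring, the separated groups with a library left out and, for the receptor kinase and mesenchymal lists, each RT112 library left out. Summaries used Python 3.11.15 with pandas 2.3.3, numpy 2.4.6 and matplotlib 3.10.9. Replicate numbers were not used as pairs outside the replicate block.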

Additional observations from a re-analysis of the deposited data

Results flagged for a closer look

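There were 2 lists that lay on opposite sides in the 2 cell lines, with every siPAI-1 library median above every Scr library median in UM-UC-3 and below it in RT112. The receptor kinase list (ERBB, FGF, MET and others) had a median log2 difference of 0.0563 in UM-UC-3 and -0.228 in RT112. The list of mesenchymal and epithelial state had 0.0668 in UM-UC-3 and -0.0945 in RT112. In UM-UC-3 the siPAI-1 library medians of the second list were -0.0002 and 0.084 and the Scr medians -0.015 and -0.067, so libraries of different groups lay close to each other. In RT112 the siPAI-1 library medians were -0.209 and -0.031 for the receptor kinases and -0.154 and -0.0069 for the second list, with library 1 the lower in both, and the Scr medians were 0.121 and 0.066, and 0.124 and 0.0086. Without siPAI-1 library 1 the RT112 differences were -0.063 and -0.084. The difference between the lines was not tested for either list.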

How the results depend on the processing

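Of 2345 values computed under an alternative, 2221 kept their direction and their side of the threshold or moved by less than the spread between replicates. With no library left out, 0 genes had an adjusted p under 0.05 by limma in any alternative but 1. The fit on genes of at least 10 TPM gave 1 gene, and there both the set of genes tested and the estimated spread changed. Without trend in eBayes, p without adjustment was under 0.05 for 65 genes on the higher and 86 on the lower side, against 263 and 374. With 1 library left out these counts ran from 154 to 464 and from 211 to 590. The extremes for higher genes were without siPAI-1 library 2 (154) and without Scr library 1 (464), and for lower genes without siPAI-1 library 1 (211) and without Scr library 2 (590), and without siPAI-1 library 2 the lower count was 220. With 1 library in a group, separation from the other group is easier by construction, and 2366 to 3322 genes were higher and 2672 to 3656 lower, with 0 to 0 genes at an adjusted p under 0.05. Median ratio scaling gave 1670 higher and 1687 lower genes against 1457 and 1734. The interaction count was 0 to 37 with a library left out, and it was 37 and 7 without RT112 siPAI-1 libraries 2 and 1, and 1 and 2 without UM-UC-3 Scr libraries 1 and 2. In the fits with 1 library in a group, that library is assumed to vary like the others.

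With the replicate block the same counts were 263 and 359, with 0 genes at an adjusted p under 0.05, and it changed no call. The deviations of libraries with the same number had a correlation of 0.036 across genes. From so few libraries a pairing by number can be neither shown nor excluded.

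The log2 differences of 7 genes with overlapping groups took the other sign in 11 values. With FPKM ANXA2 had -0.00402, and with median ratio scaling VIM had 0.00156. With a library left out ANXA2 ran from -0.0119 to 0.0147, TGFB1 from -0.145 to 0.0277, CCND1 from -0.108 to 0.0554, SND1 from -0.0753 to 0.146, VIM from -0.0754 to 0.0641, CYCS from -0.0135 to 0.0364 and AXL from -0.125 to 0.0229. The other sign came without Scr library 1 for TGFB1, CCND1, VIM and AXL, without Scr library 2 for ANXA2 and SND1, and without a siPAI-1 library for ANXA2 and CCND1 (library 1) and CYCS (library 2). The median of 32 of the 61 lists took another sign under at least 1 alternative, and 5 of these were described, namely DNA replication, the plasminogen list, G1, the PAI-1 partners and the small nucleolar RNA hosts. For a gene of 1 kb at 10 TPM the counting error of 1 library is near 0.10 on the log2 scale. The differences of genes with separated groups had a median size of 0.15, so those of short genes near the cutoff can lie close to the counting error. Longer transcripts hold more reads at the same TPM, so their counting error is smaller. The median annotated length was 3814 bases, and the number of genes close to their counting error was not determined.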

Other observations

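Genes were also grouped by the letters of their symbol, over 138 such families with at least 8 of the 8181 genes. These families and the members named were chosen after their values were seen, so no test is given, and the counts stand beside 17.8% higher and 21.2% lower over all 8181 genes. Among 14 ZDHHC genes, enzymes that attach palmitate to proteins, 6 were higher in both siPAI-1 libraries and 1, ZDHHC8, was lower, with a median log2 difference of 0.11. After GC centring 6 were higher and 0 lower. ZDHHC16 was at 32.4 and 32.5 TPM with siPAI-1 and at 28.6 and 27.4 TPM with Scr, and ZDHHC6 at 55.5 and 43.6 against 41.8 and 41.3 TPM. In RT112 2 of the 14 were higher and 4 lower. Of 34 genes whose symbols start with USP, nearly all of them deubiquitinating enzymes, 11 were higher (32.4%) and 2 lower, and after GC centring 12 and 1. In RT112 7 of them were higher and 5 lower. USP3, which acts on ubiquitinated histones, was at 63.1 and 61.7 against 53.8 and 54.4 TPM, and USP28 at 26.5 and 26.2 against 23.7 and 21.4 TPM.

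On the lower side, 8 of 15 NUDT genes were lower (53.3%) and 1 higher, with a median of -0.09, and after GC centring 5 were lower and 0 higher. Most of them encode hydrolases of nucleoside diphosphates, while NUDT21 is a subunit of a cleavage factor for mRNA 3′ ends. Of the same genes, 10 were higher in RT112 and 0 lower. NUDT8 was at 16.5 and 15.6 against 18.8 and 20.1 TPM and NUDT5 at 94.1 and 102 against 104 and 108 TPM. Of 10 PEX genes, needed to build peroxisomes, 4 were lower and 0 higher, and after GC centring 4 and 1. They include the receptor PEX5 at 26.9 and 25.4 against 30.6 and 27.4 TPM and PEX10 at 19.2 and 19.1 against 22.9 and 21.5 TPM. Of 98 TMEM genes, a name shared by unrelated membrane proteins, 31 were lower (31.6%) and 14 higher (14.3%), and after GC centring 26 and 19.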
